A study of Homo sapiens with 3 samples.

Results

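The genes described here are 10 members of the intermediate filament family: the epithelial keratins KRT8, KRT18 and KRT19, the type III genes VIM, DES and GFAP, the neurofilament gene NEFL, and the lamin genes LMNA, LMNB1 and LMNB2. They were taken by gene symbol, without use of their measured values, though earlier results of these data were known. All 10 were found by Ensembl identifier among the 58051 genes counted. The measurement was RNA-seq of H9, an established human embryonic stem cell line (hESC), labelled wild type (genotype WT) with no treatment and grown in Essential 8 Flex medium on a Vitronectin-XF coating. Libraries were made from total RNA depleted of ribosomal RNA, in 3 replicates of this single condition. The study used these libraries to rank genes by expression. The labels do not say whether the replicates came from separate cultures, so the spread between them may be technical. With 1 line and 1 condition, the values describe this culture and allow no comparison between groups, and an exact two-sided sign-flip permutation test over 3 libraries cannot go below p = 0.25.

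Intermediate filaments are rope-like polymers of coiled-coil proteins that give cells and nuclei mechanical strength. Keratins are obligate heteropolymers of a type I chain, such as KRT18 or KRT19, and a type II chain, such as KRT8; these chains are the keratins of simple epithelia and also of the early embryo. Type III proteins assemble with themselves: vimentin (VIM) in mesenchymal and many cultured cells, desmin (DES) in muscle and glial fibrillary acidic protein (GFAP) in astroglia. NEFL is the light subunit of neurofilaments in axons. Lamins line the inner nuclear membrane. LMNB1 and LMNB2 encode the B-type lamins, which keep a farnesyl anchor, and LMNA encodes lamins A and C by alternative splicing, which a count per gene does not separate. A-type lamins are known to be low in embryonic stem cells and to rise on differentiation.

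All of these proteins share a central rod that ends in a conserved coiled-coil motif, and its coding DNA can be compared between all members at the same place. The 30 bases below, read from the genome on the coding strand of the canonical transcript of each gene, cover the motif, with the bases that differ from VIM in capitals. The stretches of 7 members are shown.
VIM: acctacaggaagctgctggaaggcgaggag
KRT8: acctacaggaagctgctggaGggcgaggag
DES: acctacCggaagctgctggaGggAgaggag
LMNB2: GcctacCggaagctCctggaGggcgaggag
LMNB1: GcTtacaggaaActCTtAgaaggcgaAgaA
KRT18: acctacCgCCGCctgctggaagATgGCgag
KRT19: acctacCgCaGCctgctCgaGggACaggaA
The type II keratin KRT8 differed from VIM at 1 of these bases, DES at 3, LMNB2 at 4, LMNB1 at 8, and the type I keratins KRT18 and KRT19 at 9 each. On build GRCh38 the VIM stretch lies in exon 7 of 10 at chr10:17235355-17235384 on the plus strand. The motif of LMNB1 lies in exon 6 of 11 at chr5:126819108-126819137 on the plus strand. The KRT8 stretch is in exon 6 of 8 at chr12:52898684-52898713 on the minus strand, and the KRT18 stretch in exon 6 of 7 at chr12:52952305-52952334 on the plus strand. Over longer alignments of coding sequence, LMNA shared 71.3% of 1168 aligned bases with LMNB2 and 63.9% of 1133 with LMNB1, and VIM shared 73.5% of 982 with DES.

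The 3 libraries held 10390984, 12024802 and 8655155 counts. Levels are given as TPM, a unit that divides the deposited counts by gene length and scales each library to the same sum, with all exons of a gene in GENCODE 44 merged to give its length. All 8 embryonic stem cell markers that were looked at fell in the highest expression class (defined below), beside 28.8% of all protein-coding genes. Their summed level lay between 6707 and 6860 TPM. Replicate 3 was the shallowest library and is known from an earlier account of these data to stand apart. Some of the results that rest on it, but not all, are also given without it.

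The B-type lamins LMNB1 and LMNB2 and the keratins KRT18 and KRT8 were the highest of the 10 genes, VIM, KRT19 and NEFL were also in the top class, LMNA was far below the B-type lamins, and desmin and GFAP were near the limit of detection. Classes followed the study's methods: a level under 0.01 TPM made a gene nonexpressed, and the other 16968 protein-coding genes fell into 3 quantiles of equal size, with boundaries at 3.35 and 26.96 TPM. By the mean of the replicates, 7 of the 10 members were in the high class, beside 28.8% of all 19629 protein-coding genes. LMNA was medium, DES and GFAP were low, beside 28.8% of all genes in each of these classes, and no member was nonexpressed, beside 13.6%. Every member kept its class in each replicate taken alone, as did 87.4% of all protein-coding genes, and 8 of 10 reached 1 TPM in every replicate, beside 65.1%. The median level of the members was 100.4 TPM, beside 11.7 TPM for all expressed protein-coding genes.

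**Figure D1:**
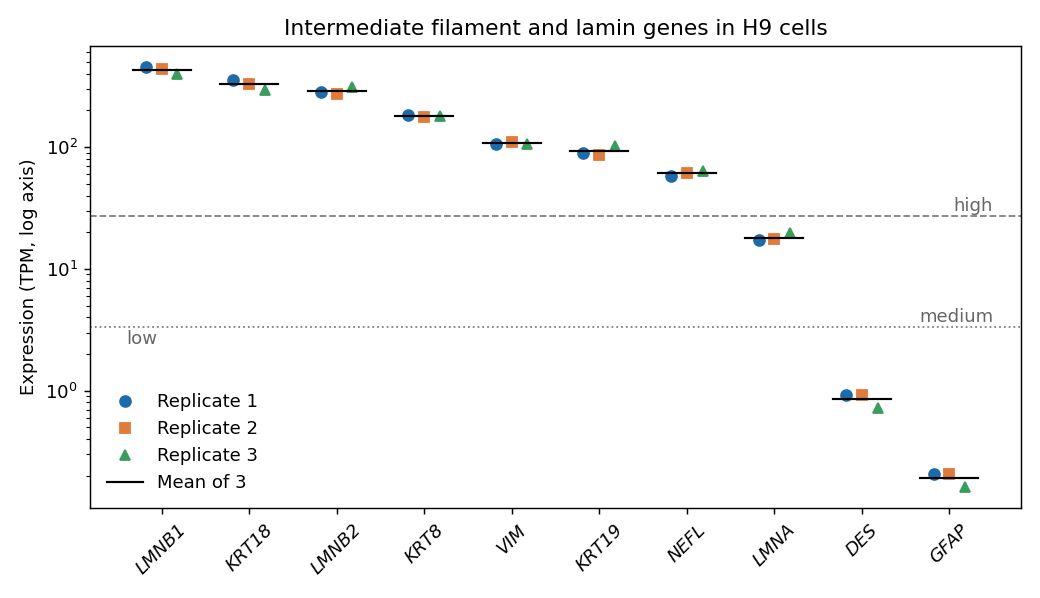
Expression of the 10 members in H9 cells, in TPM on a log axis, with 1 point for each of the 3 replicates and a line at their mean. Dashed and dotted lines mark the class boundaries at 26.96 and 3.35 TPM. The 7 leftmost genes lie above the upper boundary in every replicate, LMNA lies between the boundaries, and DES and GFAP lie below 1 TPM.

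LMNB1, the main B-type lamin of proliferating cells (ENSG00000113368, chr5:126776623-126837020, plus strand), had the highest level of all members by merged exon length, though not by the transcript lengths given further on. It measured 455.2, 437.2 and 398.5 TPM in replicates 1 to 3, or 430.3 ± 28.996 TPM (SD, n = 3), from 4305, 4807 and 3213 counts. It ranked 249 among expressed protein-coding genes, at percentile 98.5. LMNB2, the other B-type lamin (ENSG00000176619, chr19:2427638-2456959, minus strand), measured 285.0, 270.5 and 309.3 TPM, or 288.3 ± 19.6 TPM (SD, n = 3). Every LMNB1 value lay above every LMNB2 value. The ratio of LMNB1 to LMNB2 was 1.60, 1.62 and 1.29, and the lower ratio of replicate 3 came from opposite shifts of both genes in that library.

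LMNA (ENSG00000160789, chr1:156082573-156140081, plus strand) measured 17.2, 17.5 and 19.6 TPM, or 18.1 ± 1.31 TPM (SD, n = 3), from 365, 430 and 354 counts. By merged exon length, its highest replicate was below every replicate of both B-type lamins by more than 10-fold. LMNA made up 2.27%, 2.41% and 2.69% of the summed lamin level, or 2.46% ± 0.214 (SD, n = 3), while LMNB1 made up 58.4% ± 3.13 and LMNB2 39.2% ± 2.93. The B-type lamins together exceeded LMNA by 43.0-, 40.6- and 36.1-fold. The LMNA exons in GENCODE add up to 8141 bases when all transcripts are merged, against 3616 in the longest transcript. With the longest transcript as gene length the LMNA share was 4.93%, with the canonical transcript 5.03%, and in both cases its level of 30.7 or 28.0 TPM fell just inside the high class. The B-type lamins stayed above LMNA in each replicate under both lengths. LMNB2, the lower of them, then had means of 252.6 and 202.6 TPM, less than 10-fold above those of LMNA.

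**Figure D2:**
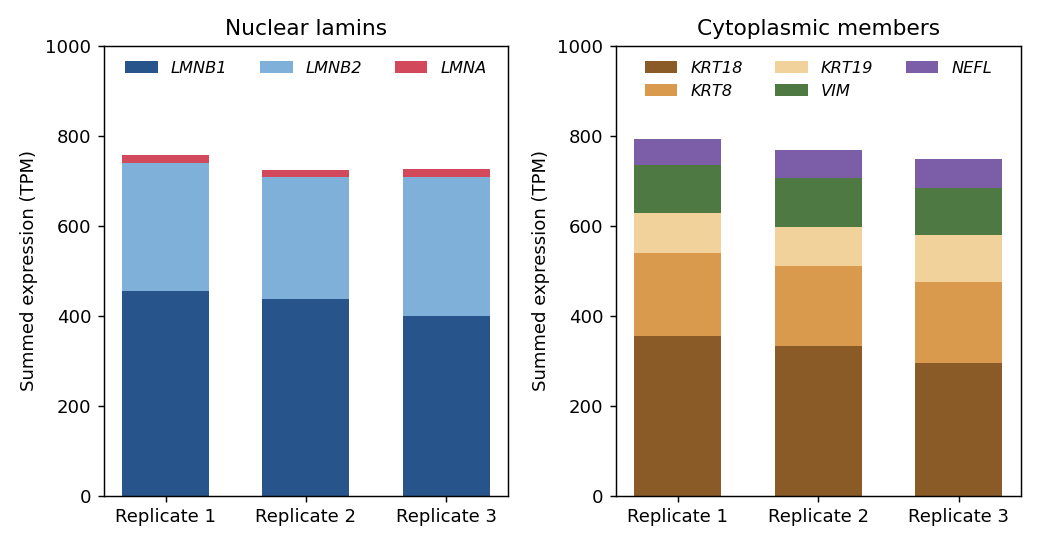
Summed expression in TPM of the 3 lamins (left) and of the cytoplasmic members (right) in each replicate, stacked by gene, on axes that start at 0. LMNA is a thin band of 2.27% to 2.69% of the lamin sum, KRT18 is the largest band of the cytoplasmic sum in every replicate, and DES and GFAP are too low to be drawn.

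Of 14 genes for lamina partners, 12 reached 1 TPM in every replicate, beside 65.1% of all protein-coding genes, and 8 were in the high class, beside 28.8%, with a median of 36.8 TPM. The highest were BANF1, a DNA-bridging protein that ties chromatin to the envelope, at 308 ± 17.97 TPM (SD, n = 3), TMPO, the gene of the LAP2 proteins, at 218 ± 11.8 TPM, and LBR, the lamin B receptor, at 151 ± 4.97 TPM. All 5 genes of lamin processing reached 1 TPM in every replicate, beside the same 65.1%, with a median of 31.6 TPM. ICMT, which methylates the farnesylated cysteine, was at 227 ± 8.85 TPM. ZMPSTE24, the protease that trims prelamin A, was at 103 ± 4.59 TPM, above LMNA in every replicate, and RCE1, which removes the last residues of farnesylated proteins, was at 31.6 ± 3.02 TPM.

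KRT18 was the leading keratin. This type I chain (ENSG00000111057, chr12:52948871-52952906, plus strand) measured 354.0, 332.2 and 294.6 TPM, or 326.9 ± 30.01 TPM (SD, n = 3), from 2828, 3085 and 2007 counts. Its type II partner KRT8 (ENSG00000170421, chr12:52897187-52949954, minus strand) measured 184.6, 178.3 and 181.2 TPM, or 181.3 ± 3.15 TPM, from 3306, 3712 and 2767 counts. KRT19, a type I chain without the usual tail domain (ENSG00000171345, chr17:41523617-41528308, minus strand), measured 89.1, 86.3 and 103.0 TPM, or 92.8 ± 8.94 TPM. Each of the 3 keratins was separate from the others in every replicate on this scale. KRT19 was 0.252, 0.260 and 0.350 of KRT18 in replicates 1 to 3, or 0.287 ± 0.0543 (SD, n = 3), a spread that rests mostly on replicate 3.

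Within the keratin families these genes held nearly the whole level. KRT18 and KRT19 made up 94.9% ± 0.282 of the summed TPM of 28 type I keratin genes, and KRT8 made up 96.4% ± 0.656 of that of 26 type II keratin genes (SD, n = 3). The ratio of KRT8 to KRT18 was 0.521, 0.537 and 0.615 on the TPM scale, or 0.558 ± 0.0502, and 0.529 without replicate 3. Against the sum of both type I members it was 0.433 ± 0.0204. The ratio turned on the gene length used. In reads alone KRT8 exceeded KRT18, by 1.25 ± 0.112-fold (SD, n = 3), and the 6881 bases of merged KRT8 exons are 2.40 times its longest transcript of 2862 bases, where the typical protein-coding gene has 1.23 times. With the longest transcript as length the ratio was 0.912, and with the canonical transcript 0.990. The SD over the replicates was 0.0821 and 0.0891 on these scales, so KRT8 was below KRT18 in every replicate by merged exons, and the canonical transcript gave a mean ratio within its SD of 1.

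**Figure D3:**
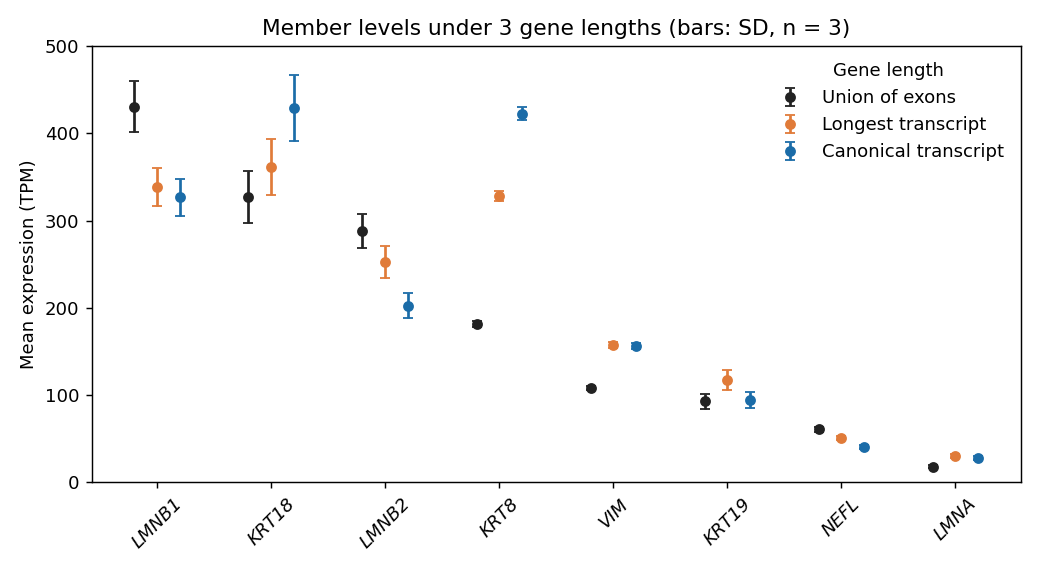
Mean expression in TPM of the 8 members above 1 TPM under 3 choices of gene length, with bars for the SD of the 3 replicates, on an axis that starts at 0. KRT8 moves most, from 181.3 TPM with merged exons to 422 TPM with the canonical transcript, and LMNB1 falls from 430.3 to 326 TPM.

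KRT8 and KRT18 are neighbours on chromosome 12, on opposite strands, and 525 bases of their annotated exons overlap, which is 17.1% of the KRT18 and 7.63% of the KRT8 exon length. Whether the authors' counting used strand is not given in the sources used here, so reads in that stretch cannot be assigned with certainty to either gene. Both genes also have many processed copies. By symbol, 51 KRT8 and 67 KRT18 pseudogenes were annotated, and 47 of the KRT8 copies matched the parent's coding sequence at a median identity of 90.1%. Reads were assigned to 28 KRT8 copies, 297 reads in all, or 3.04% of the KRT8 reads, and to 26 KRT18 copies, 98 reads in all, or 1.24% of the KRT18 reads. The KRT8 copies with most reads were KRT8P12 (chr3:160565447-160569248, plus strand), with 41, 47 and 37 reads and 86.1% identity over 1456 aligned bases, and KRT8P46 (chr4:102728746-102730171, minus strand), with 26, 18 and 10 reads. The only KRT18 copy with more than 3 reads in every replicate was KRT18P7 (chr14:70594552-70595770, plus strand), with 4, 7 and 8 reads. A window of 60 bases at the middle of the KRT18P7 alignment shows how closely this copy follows its parent, with the bases that differ between them in capitals.
KRT18: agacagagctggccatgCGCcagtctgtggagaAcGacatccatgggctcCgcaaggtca
KRT18P7: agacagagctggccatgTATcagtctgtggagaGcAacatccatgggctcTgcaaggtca
The window, from base 506 to base 565 of the KRT18 coding sequence, held 6 differences. Reads that lie between such differences could belong to either gene, so the split between parent and copy is uncertain. The other members had few copies or none: 5 for KRT19, with 7 reads in all, and 1 for NEFL, with no read.

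Cytolinker and desmosome genes include some that anchor keratins at the cell surface. Of the 13 genes in this list, 10 reached 1 TPM in every replicate, beside 65.1% of all protein-coding genes. The high class held 6 of them, beside 28.8%, and the median of the list was 20.4 TPM. DSG2, the desmosomal cadherin of simple epithelia, was at 149 ± 6.30 TPM (SD, n = 3), JUP, plakoglobin, at 130 ± 14.8 TPM, and DSP, desmoplakin, which links keratins to the desmosome, at 118 ± 3.28 TPM. The 3 genes in the low class were EVPL, PKP1 and PKP3, at 0.221 ± 0.107, 0.0177 ± 0.0307 and 1.07 ± 0.578 TPM. The 4 in the medium class were PPL at 20.4 ± 0.931, DST at 17.9 ± 1.71, PKP2 at 11.7 ± 0.679 and EPPK1 at 7.70 ± 2.17 TPM. These low and medium genes were chosen for mention after their values were seen. Most markers of other keratin-bearing cells were in the low or nonexpressed class, but each list also held genes above it. Of 5 epidermal markers, KRT5, KRT14 and KRT1 had no read, and the summed level of 21.5 to 22.9 TPM was nearly all KRT10. Of 7 trophoblast and amnion markers, 3 reached 1 TPM in every replicate, beside 65.1% of all protein-coding genes, and CDX2 had no read. The sum of these markers, 54.0 to 69.1 TPM, was mostly TFAP2C, in the high class at 52.6 ± 6.05 TPM. KRT7 was in the medium class at 6.70 ± 1.19 TPM, and GATA3 was at 1.67 ± 0.247 TPM. Of 5 endoderm markers 4 reached 1 TPM in every replicate, beside the same 65.1%, with a sum between 11.5 and 16.7 TPM. FOXA2 was in the medium class at 7.54 ± 1.71 TPM, and the other 4 were low. In bulk RNA, fewer cells of a type and less RNA per cell cannot be told apart, and the part of such cells in the keratin levels was not tested.

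Vimentin was the only type III gene above 1 TPM in every replicate. VIM (ENSG00000026025, chr10:17228241-17237593, plus strand) measured 106.7, 110.7 and 106.3 TPM, or 107.9 ± 2.43 TPM (SD, n = 3), from 1438, 1734 and 1221 counts. KRT18 was above it in every replicate, by 3.03 ± 0.273-fold. VIM contributed 13.4%, 14.4% and 14.2% of the summed level of the 7 cytoplasmic members, or 14.0% ± 0.497, while the 3 keratins contributed 77.9% ± 0.983 and NEFL 7.92% ± 0.570. Of 7 fibroblast markers 4 reached 1 TPM in every replicate, beside 65.1% of all protein-coding genes, with a summed level of 182 to 199 TPM. Most of it was THY1, at 145 ± 11.2 TPM, a surface protein that is also known on human embryonic stem cells, and the collagen genes COL1A2, at 25.6 ± 1.67 TPM, and COL1A1, at 14.6 ± 1.43 TPM, were in the medium class. COL3A1 was at 2.71 ± 0.246 TPM, PDGFRB at 1.09 ± 0.233, DCN at 0.0985 and LUM at 0.178 TPM. The part of fibroblast-like cells in the VIM level was not tested.

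Antisense genes lie across VIM. The lncRNA gene ENSG00000234961 (chr10:17233325-17234833, minus strand) has 87.7% of its 706 exon bases within VIM exons, and it was assigned 449, 558 and 374 reads, which is 31.4% of the VIM reads. Its reads per kilobase were 2.30 times those of VIM. VIM-AS1, the antisense gene over the VIM start, shares 656 exon bases with VIM and was assigned 150, 197 and 160 reads. Without knowing the strand setting of the counts, reads of VIM and of these genes cannot be told apart. With the reads of ENSG00000234961 added, VIM stood at 141.7 TPM and its share of the cytoplasmic members at 17.6%.

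DES and GFAP were barely detected. DES (ENSG00000175084, chr2:219418377-219426735, plus strand) had 6, 7 and 4 reads, or 0.926, 0.929 and 0.724 TPM, with an exact Poisson 95% interval of 0.501 to 1.38 TPM on the mean of 0.860. GFAP (ENSG00000131095, chr17:44903159-44916937, minus strand) had the same 6, 7 and 4 reads, which over its longer exons are 0.205, 0.206 and 0.160 TPM, with an interval of 0.111 to 0.305 TPM on the mean of 0.191. These intervals cover counting error only. Each of these values is at most a few reads above the 3 counts that a count of 0 allows. GFAP shares exon bases with CCDC103 and FAM187A on the other strand, assigned 12 reads and none over the 3 replicates, so the few GFAP reads carry the same uncertainty of strand. None of 8 muscle markers reached 1 TPM in every replicate, beside 65.1% of all protein-coding genes. MYOD1 and MYOG had no read, and the sum of the 8 markers lay between 2.08 and 2.80 TPM. Of 6 astroglial markers 2 reached 1 TPM in every replicate, beside the same 65.1%. The sum of these 6 markers, 558 to 680 TPM, was nearly all GJA1, connexin 43, a gap junction gene used by many cell types, at 599 ± 60.3 TPM. SLC1A3, a glutamate transporter, was in the medium class at 16.0 ± 1.09 TPM. SLC1A2 was at 1.04 ± 0.103, ALDH1L1 at 0.562 ± 0.142 and AQP4 at 0.417 ± 0.124 TPM, and S100B had 0, 1 and 0 reads. The part of muscle or astroglial cells in the few DES and GFAP reads was not tested.

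NEFL (ENSG00000277586, chr8:24950955-24956721, minus strand) was in the high class, at 58.4, 60.8 and 63.7 TPM, or 61.0 ± 2.65 TPM (SD, n = 3), from 599, 725 and 557 counts. It was below KRT19 and above LMNA in every replicate. The lncRNA gene ENSG00000272157 overlaps its exons on the other strand but was assigned only 6, 11 and 5 reads. The other neurofilament chains were present too. NEFM, the medium subunit, was at 47.2 ± 5.71 TPM, NEFH, the heavy subunit, at 5.07 ± 1.18 TPM, and INA, alpha-internexin, which assembles with neurofilaments, at 59.7 ± 1.69 TPM. By merged exon length, NEFL exceeded NEFM by 1.31 ± 0.196-fold and NEFH by 12.5 ± 2.96-fold. On that scale NEFL was level with INA, at 1.02 ± 0.0438. With the longest and the canonical transcript NEFL was at 50.4 and 40.5 TPM, and these ratios were not calculated for those lengths. Of 6 neuronal markers 3 reached 1 TPM in every replicate, beside 65.1% of all protein-coding genes, with a sum of 56.5 to 61.7 TPM. SYT1 was at 40.0 ± 1.13, STMN2 at 15.3 ± 2.54 and RBFOX3 at 3.62 ± 0.513 TPM, while ELAVL4 was at 0.245, ELAVL3 at 0.233 and SNAP25, with 2 reads in each replicate, at 0.0381 TPM. The part of neuronal cells in the NEFL level was not tested.

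Across 70 genes of the intermediate filament family, only 16 reached 1 TPM in every replicate, where 65.1% of all protein-coding genes did. Of these 16, 8 were members. All 7 type IV and VI genes and all 3 lamins were at this level. NES, nestin, a filament gene of stem and progenitor cells, was the highest of the type IV and VI genes, at 327 ± 14.6 TPM (SD, n = 3). It was at 1.01 ± 0.119 of KRT18 and 3.03 ± 0.201 times VIM. SYNC and SYNM, which encode filament-associated partners, were at 52.1 ± 1.86 and 2.52 ± 0.0733 TPM. NEFM, NEFH, SYNC and SYNM were chosen for mention after their values were seen. The keratins were the most restricted, since 45 of 54 had no read in any library, 22 of 28 of type I and 23 of 26 of type II. Among all 19629 protein-coding genes, 2653 had no read. Besides the members, only KRT10, a type I keratin of differentiating epidermis, at 21.9 ± 0.783 TPM, and KRT7, a type II keratin of simple epithelia, at 6.70 ± 1.19 TPM, reached 1 TPM in every replicate. The fourth type III gene, PRPH, peripherin, was at 0.587, 1.51 and 1.72 TPM, and the lens filament genes BFSP1 and BFSP2 were at 0.239 and 0.0748 TPM.

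**Figure D4:**
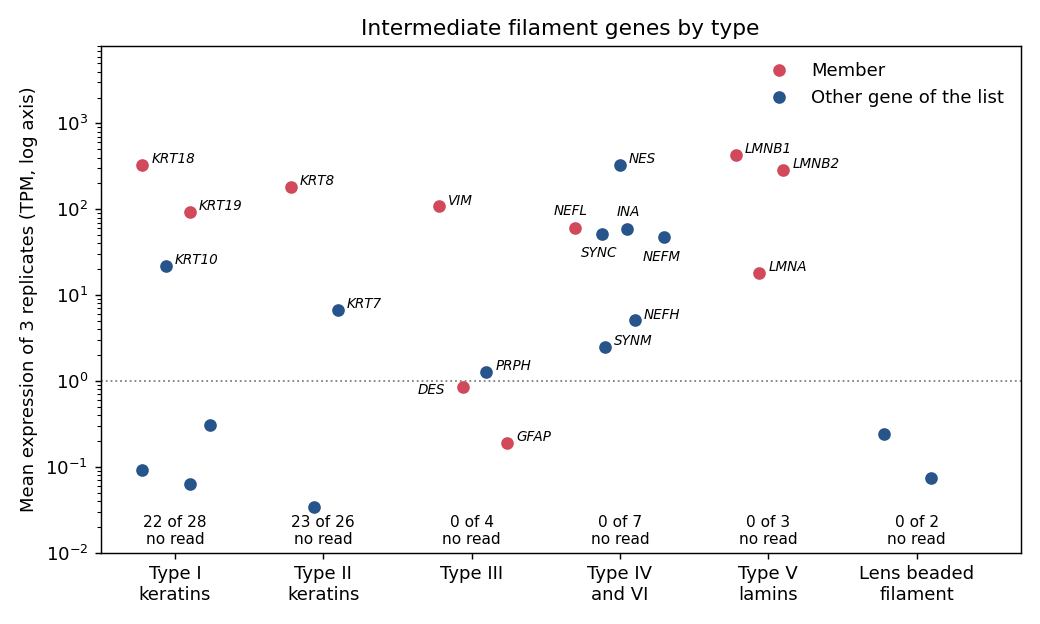
Mean expression in TPM (log axis) of the intermediate filament genes with at least 1 read, grouped by type, with members in red and other genes of the family in blue. The dotted line marks 1 TPM, and the numbers at the foot count the genes with no read, 22 of 28 type I and 23 of 26 type II keratins.

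Ordered by mean TPM, the members ran from LMNB1 through KRT18, LMNB2, KRT8, VIM, KRT19, NEFL, LMNA and DES to GFAP. The replicates of neighbours in this order overlapped for KRT18 and LMNB2 only, whose ratio was 1.24, 1.23 and 0.953. The closest pair that did not overlap was VIM and KRT19, where the lowest VIM value of 106.3 TPM stood beside the highest KRT19 value of 103.0 TPM. The top 4 places depended on gene length: KRT18 led LMNB1 with the longest transcript, at 361.6 against 338.5 TPM, and KRT18 and KRT8 led both B-type lamins with the canonical transcript, at 428 and 422 against 326 and 203 TPM. From the fifth place down the order was the same under all 3 lengths.

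The members differed in how far replicate 3 stood from the other libraries. Spread was taken as the coefficient of variation (CV) of TPM over the replicates, for the 8 members with 100 or more counts in each. KRT8 and VIM were the steadiest, with CVs of 1.74% and 2.26%, and their counts varied about as sampling alone would give, with a chi-square per degree of freedom of 1.23 and 0.670. KRT19, KRT18, LMNA, LMNB2 and LMNB1 had CVs of 9.63%, 9.18%, 7.22%, 6.80% and 6.74%, and NEFL one of 4.35%. The median CV of all 10 members was 7.01%, and 2.52% without replicate 3. It includes DES and GFAP, at 13.7% each from a few reads. The median was 5.57% for the 9386 protein-coding genes with 100 or more counts in each library, a set without DES and GFAP. By CV, KRT18 varied more than 93.0% of genes of similar count. Its chi-square per degree of freedom was 15.1, where the median of those genes was 3.06. LMNB2 had the highest chi-square of the members, at 24.2, and LMNB1 had 11.3, beside medians of 4.72 and 4.74 for genes of similar count. In replicate 3, on the log2 scale against the mean of the other libraries, KRT18 stood at −0.22 and LMNB1 at −0.16, while KRT19 stood at 0.23, LMNA at 0.18, LMNB2 at 0.16 and NEFL at 0.10. KRT8 and VIM, at −0.0019 and −0.03, hardly moved. All of these lay within −0.23 to 0.32, the range of the middle 90% of those genes.

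Base composition moved with these shifts. Exon GC content was 60.02% in KRT19, 58.8% in LMNA and 62.3% in LMNB2, which were all higher in replicate 3, and 50.3% in both LMNB1 and VIM, which were not. NEFL was the exception, higher in replicate 3 at the lowest GC content of the 8, 48.8%. KRT18, at 55.7%, fell although KRT8, at 55.9%, did not. Across the 9386 genes the shift of replicate 3 had a Spearman's rho of 0.418 with exon GC, and across the 8 members rho was 0.595 and Pearson's r 0.534. Replicate 2 went the other way, with rho of −0.375 over all genes and −0.833 over the members (r −0.844). Replicate 1 had rho of −0.212 and −0.190. These coefficients do not measure the size of the shifts, and no slope was fitted. Each ratio holds the other libraries in its denominator, so these values are not independent of each other. These are descriptions across genes that share the same libraries, and the part of base composition in the members' spread was not tested.

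**Figure D5:**
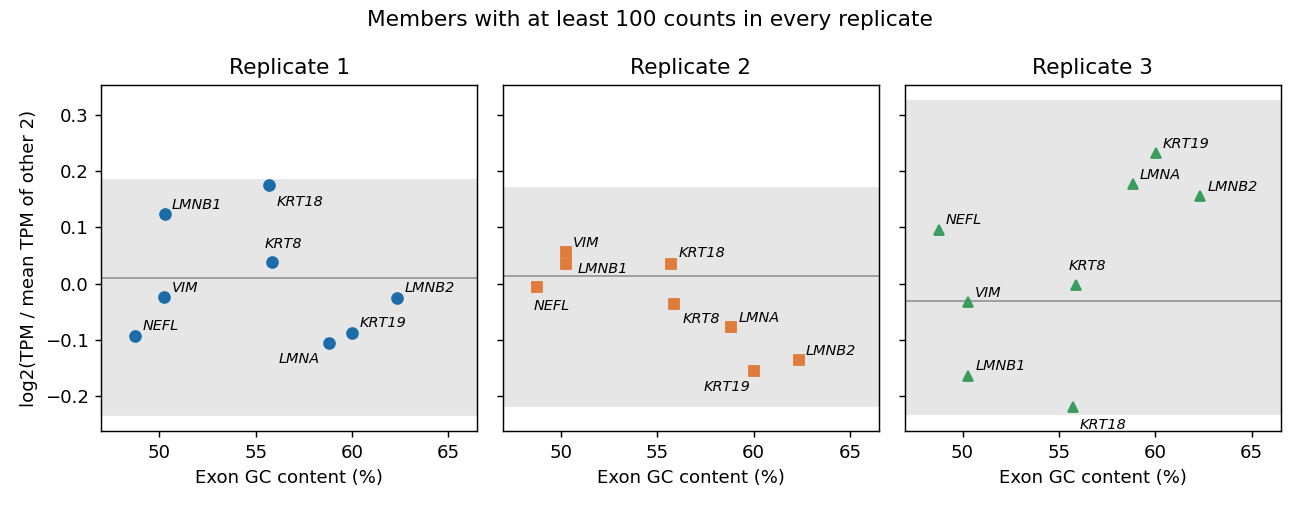
Log2 ratio of each member's TPM in 1 replicate to the mean of the other libraries, against exon GC content in percent, 1 panel for each replicate. The grey band spans the middle 90% of protein-coding genes with 100 or more counts in each library, −0.23 to 0.32 in replicate 3, and the line is their median. KRT19, LMNA and LMNB2 are the high points of replicate 3, and KRT18 is the lowest.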

How the data were processed

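RNA-seq of 3 replicates of untreated H9 cells was analysed. The authors trimmed reads with Trim Galore 0.4.4, aligned them to GRCh38 with TopHat2 2.1.1, and deposited whole-number counts per gene without normalization. Their submission notes also name Cufflinks 2.2.1, whose values were not used. For the counting tool, its annotation and its strand setting, the sources used here give nothing.

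Counts were joined by identifier to GENCODE 44 (56948 of 58051 genes matched). TPM was the count per kilobase of merged exons, scaled to the matched genes of each library. Depth was 8655155 to 12024802 counts, so levels of a few reads are imprecise. Where no read was counted, up to 3 remain possible, and intervals cover counting error only. There was no test between groups.

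Members and gene lists were chosen with earlier results of these data known. Besides members, the genes named were the 3 highest of each list by mean TPM and undetected genes of small lists, copies with more than 3 reads in every replicate (2 for each parent at most), overlapping genes and marker genes. Some further genes are marked in the text as chosen after their values were seen. Coding DNA came from the genome at GENCODE coordinates, with copies aligned by blastn 2.17.0. Some coding sequences are not reported here. Promoters came from the RefSeq table. TMM factors (edgeR 4.0.16) and DESeq2 1.42.0 size factors gave alternatives, as did gene length, TPM totals, filters, thinning and leaving out a replicate. The length of the canonical transcript and adding opposite-strand reads were chosen after seeing the data. Scripts ran in Python 3.11.15 (pandas 2.3.3, scipy 1.17.1, numpy 2.4.6, Biopython 1.88), with bedtools 2.31.1 and R 4.3.3, and the calculations were tested on simulated data.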

Additional observations from a re-analysis of the deposited data

How the results depend on the processing

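With the longest and the canonical transcript, the ratio of KRT8 to KRT18 was 0.912 and 0.990 (0.558 with merged exons), the LMNA share of the lamins 4.93% and 5.03% (2.46%), the median level of the members 137.5 and 125.3 TPM (100.4), and 6 of 10 members kept their rank under each. The VIM share was 15.5% with the longest transcript and 17.6% with opposite-strand reads added (14.0%). The median level was 104.6 TPM without mitochondrial genes, 124.2 TPM with protein-coding genes only in the total, and 117.3 TPM with opposite-strand reads added. The count of members in the high class was 7, or 8 under both transcript lengths or with all genes classified. The count of family genes was 16 at 1 TPM, 20 at 0.1 TPM and 14 at 5 TPM.

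Leaving out 1 replicate at a time gave ratios of KRT8 to KRT18 from 0.529 to 0.576, LMNA shares from 2.34% to 2.55%, VIM shares from 13.8% to 14.3%, median levels from 98.2 to 102 TPM, 16 to 17 family genes, and median CVs from 2.52% to 9.25%, the lowest without replicate 3. TMM and DESeq2 factors moved no member by more than 1 SD. No paired analysis was possible because 1 condition was sequenced. Depth limits DES and GFAP, which rest on 17 reads each over the 3 replicates.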

Other observations

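The RefSeq promoter table (GRCh38.p14, 300 bases around each start) held 8 promoters of 5 members: 3 of LMNA, 2 of LMNB1, and 1 each of LMNB2, VIM and KRT8. None of the 8 contained TATAAA on either strand, where 11.5% of all 35116 promoters did, and 6 of 8 contained GGGCGG on either strand, where 45% of all did. The promoters without GGGCGG were that of KRT8 and the upstream one of LMNB1. GC content ran from 48% in VIM to 73.7% in the downstream LMNB1 promoter, beside a median of 58.7% over all promoters. These are matches of letters and say nothing of binding.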
